A study of Mus musculus with 23 samples.

Results

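The probe described here is the row MIMAT0003484 of a NanoString nCounter mouse microRNA panel, miR-720, 1 of 602 microRNA rows. It was selected on its share of the microRNA counts, which varied most among the type II pneumocyte (AT2) samples, so its values in those samples are given as a description. The values that chose it were an SD of its share of 16.89 percentage points over 13 AT2 samples, against 2.61 for the next row, MIMAT0000548, and 2.53 for the third, MIMAT0000138. The probe was above background in 23 of 23 samples and is among the 302 microRNAs that passed the filter on low values.

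miR-720 was entered as a microRNA and later withdrawn from the microRNA registry, because its sequence matches a threonine transfer RNA and not a hairpin that Dicer would cut. Fragments of transfer RNAs are made when mature transfer RNAs, which are among the most abundant RNAs of a cell, are cleaved, and they are known to accumulate in stressed cells. The panel joins a tag to the 3′ end of each target RNA before counting its barcode, so a transfer RNA end that fits the probe would be counted like a microRNA. The files give only the identifier, and no given table pairs MIMAT identifiers with names.

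All samples were total RNA from lung cells of wild-type C57BL6 mice with no further treatment or allele given in the labels. Endothelial cells (EC), which line the blood vessels and were sorted on CD31, had 10 samples: 2 each at embryonic day 16.5 (E16.5) and postnatal days 7, 14 and 28 (P7, P14, P28), and 1 each at E18.5 and P1. AT2 cells, the surfactant-making cells of the alveolus, were sorted on CD326 and had 13 samples: 2 at each of the same stages except P28, with 3. The labels do not say how many animals a sample pooled or whether samples came from separate animals, so spreads and p-values measure differences between samples that may be technical. The panel rows have no names here, so the endothelial and epithelial marker microRNAs could not be used to check the sorts. MIMAT0000138 took 23.4% to 44.9% of the counts in EC and 0.16% to 7.82% in AT2 samples. EC P14 replicate 2, with the lowest of the EC values, stood nearest to AT2 cells in that measure. The AT2 samples nearest to EC were P7 replicate 1 (7.82%), P7 replicate 2 (6.47%) and P14 replicate 2 (5.76%). The other AT2 samples had at most 3.09%. The shallowest library, AT2 P28 replicate 1, had 26640 recovered microRNA counts, and the deepest, EC P1 replicate 1, had 571724. In bulk RNA of sorted cells, fewer cells of a type and less RNA per cell cannot be told apart.

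A share and a level of the probe are used. Its share is its recovered count as a percentage of all microRNA counts of the sample, with a 95% Wilson interval that covers counting error only. Its level is the deposited value, which is the count times 1 factor per sample. In the deposited values, the 100 microRNAs with the highest mean had a similar geometric mean in each sample, from 537 to 619. The rule that set the factor is not given.

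In AT2 cells the probe took from a small part to most of all microRNA counts, and it was the highest row of the panel in 7 of 13 samples, against 0 of 10 in EC. Its share was lowest in AT2 P7 replicate 1, at 3.31% (95% interval 3.26 to 3.37), and highest in AT2 P28 replicate 3, at 62.8% (62.6 to 62.9), with a median of 7.76% over the 13 samples. The second highest was AT2 P1 replicate 2, at 34.0% (33.9 to 34.2), and the third AT2 P7 replicate 2, at 12.4% (12.2 to 12.5). The 2 highest samples held 73% of all counts of the probe in AT2 cells. Without them the share ran from 3.31% to 12.4%, with an SD of 2.74 over 11 samples, which was still the largest of the 602 rows (2.67 for MIMAT0000138). On the log2 scale the probe was not the most variable row. It ranked 91 of 302 by the SD of its log2 share over the AT2 samples and 22 of 302 by the SD of its log2 level. Without the 2 highest samples its log2 level had an SD of 0.68 and ranked 183 of 302.

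By stage, the AT2 shares at E16.5 were 9.02% and 4.95%, and the E18.5 samples had 9.16% and 4.60%. They were 7.85% and 34.0% at P1 and 3.31% and 12.4% at P7. At P14 they were 5.95% and 3.83%, and at P28 they were 5.39%, 7.76% and 62.8%. Every AT2 stage overlapped the stage next to it in the order of mean share, which was P28, P1, P7, E16.5, E18.5 and P14 from high to low. Replicates of 1 stage differed by more than the counting intervals at all 6 stages.

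**Figure D1:**
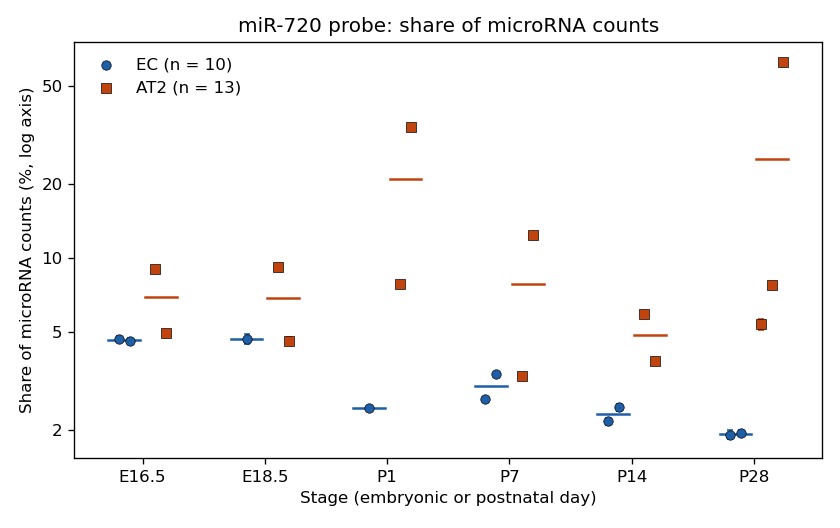
Share of all microRNA counts taken by the miR-720 probe (percent, log axis) by stage in EC (circles, 10 samples) and AT2 cells (squares, 13 samples). Error bars are 95% Wilson intervals, mostly smaller than the points, and short lines are stage means. The EC samples lie between 1.92% and 4.71%, and 2 AT2 samples stand at 34.0% and 62.8%.

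The gap between AT2 replicates was large beside that of other abundant microRNAs at P1, P7 and P28, and less so at the other stages. At P1 the higher share was 4.34 times the lower, at P7 3.73 times, at E18.5 1.99 times, at E16.5 1.82 times and at P14 1.55 times. At P28 the highest of the 3 was 11.6 times the lowest. Over the 92 microRNAs above background in all 23 samples, the median ratio was 1.39 at P1, 1.23 at P7, 1.18 at E18.5, 1.20 at E16.5, 1.42 at P14 and 3.42 at P28. Among the 92, which include the probe itself, the number with a ratio as large was 4 at P1, 1 at P7 and 3 at P28. It was 16 at E18.5, 11 at E16.5 and 24 at P14. The P28 median of shares includes the lowering of all other shares in AT2 P28 replicate 3, where the probe took 62.8%. By level, the P28 ratio was 28.8 for the probe against a median of 1.69. In EC the ratio of shares for the probe was 1.02 at E16.5, 1.26 at P7, 1.14 at P14 and 1.02 at P28, against medians of 1.23, 1.13, 1.66 and 1.29. The spread that chose the probe was thus seen between AT2 replicates of a stage, and shares of EC replicates differed by at most 1.26 times.

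The levels gave the same 2 high samples. The level was 307999 in AT2 P28 replicate 3 and 75712 in AT2 P1 replicate 2. The other 11 AT2 samples lay between 4329 and 18247, a range that contains that of EC, 5125 to 16893 (n = 10). Only 3 of 13 AT2 samples had a level above the highest EC sample, while 10 of 13 had a share above it. In AT2 P28 replicate 3 the level was 25.6 times the median of the 11 other AT2 samples (without AT2 P1 replicate 2). That was the second largest ratio among the 302 microRNAs, after MIMAT0003470, and the median ratio over all of them was -0.04 on the log2 scale. In AT2 P1 replicate 2 the level was 6.30 times that median, the largest ratio of the 302. The highest single microRNA besides the probe took 3.60% of the counts in AT2 P28 replicate 3.

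**Figure D2:**
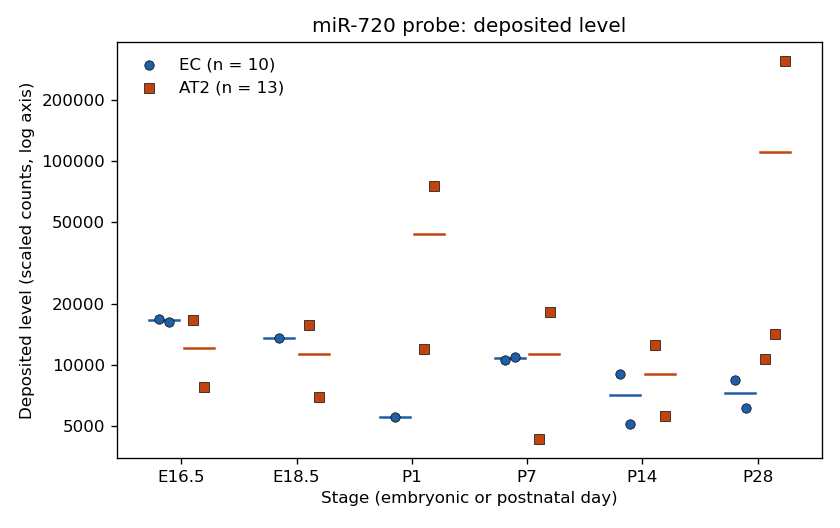
Deposited level of the miR-720 probe (scaled counts, log axis) by stage in EC (circles, 10 samples) and AT2 cells (squares, 13 samples), with short lines at the stage means. Outside the samples at 75712 and 307999, the AT2 levels of 4329 to 18247 overlap the EC levels of 5125 to 16893.

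Depth did not order the AT2 samples by their share of the probe. AT2 P28 replicate 3 had 153271 counts of other microRNAs and AT2 P1 replicate 2 had 369013, while AT2 P7 replicate 1 and AT2 P14 replicate 2, with the most (427126 and 477487), had 2 of the lowest shares, 3.31% and 3.83%. Over the 13 AT2 samples log2 share and log2 counts of the other microRNAs gave Pearson r = 0.11 and Spearman rho = -0.09. For the level, r was 0.03 and rho -0.02. These are descriptions, since the AT2 shares chose the probe. Without the 2 samples farthest from the median depth r was -0.23 for the share and -0.28 for the level. In EC the share gave r = -0.50 (permutation test, n = 10, p = 0.139) and rho = -0.26 (p = 0.471), and the level r = -0.47 (p = 0.174) and rho = -0.41 (p = 0.250). Without the 2 EC samples farthest from the median depth, r was -0.25 for the share and -0.18 for the level. The adjusted p was 0.695 or more for each of the 4 EC correlations over 12 tests, so no relation with depth was detected in these 10 EC samples. The count that enters the share and the depth come from the same library.

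**Figure D3:**
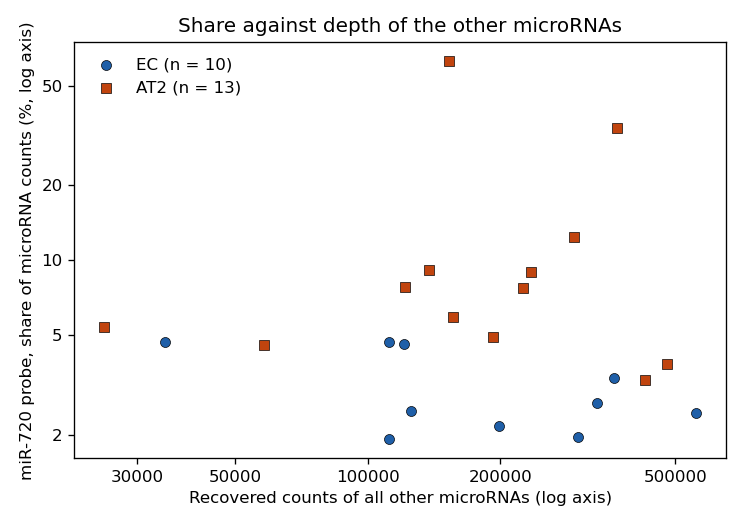
Share of the miR-720 probe (percent, log axis) against the recovered counts of all other microRNAs of the sample (log axis), in EC (circles, 10 samples) and AT2 cells (squares, 13 samples). The AT2 samples at 34.0% and 62.8% have 369013 and 153271 other counts, inside the AT2 range of 25203 to 477487.

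Summed control and messenger RNA counts of the 2 high AT2 samples also lay inside the range of the rest. The ligation control rows, which count added RNAs joined to tags with the sample, summed to 40303 in AT2 P28 replicate 3 and 37826 in AT2 P1 replicate 2, against 4977 to 81052 in the other AT2 samples. The 6 graded ERCC rows, added controls for the barcode counting, summed to 24807 and 18363, against 2190 to 42704. The 4 messenger RNA rows (Actb, B2m, Gapdh and Rpl19) held 1.83 and 0.80 counts per 100 other microRNA counts, against 0.57 to 4.27. AT2 P28 replicate 1, the shallowest sample, held the lowest of each of these ranges, and its share was 5.39% (5.13 to 5.67). Not every single measure lay inside. In AT2 P1 replicate 2 the levels of B2m (5.96) and Gapdh (6.36) were the lowest of the 23 samples. The next lowest AT2 levels were 22.01 for B2m and 14.87 for Gapdh. AT2 P1 replicate 2 also had the most values at the floor of 1, 69 against 0 to 47 in the other AT2 samples.

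In EC the probe was steadier than over all 13 AT2 samples, and its values there were not used to choose it. The SD of its log2 level was 0.62 over EC and 1.64 over AT2 samples, but 0.68 without the 2 highest AT2 samples. By the SD of its share in EC (1.16) it ranked 5 of 602. On the log2 scale in EC it ranked 226 of 302 by the SD of its share and 210 of 302 by that of its level. The E16.5 samples had shares of 4.71% and 4.63%, the E18.5 sample 4.70% and the P1 sample 2.46%. It was 2.69% and 3.37% at P7, 2.18% and 2.48% at P14, and 1.92% and 1.95% at P28. All 3 embryonic samples lay above all 7 postnatal ones, and the 3 embryonic values lay within each other's counting intervals. The order of the stage means from high to low was E18.5, E16.5, P7, P1, P14 and P28. E18.5 and E16.5 did not differ beyond the spread of the E16.5 samples, and the P1 and P14 values overlapped.

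The mean share was 2.43% ± 0.550 late (P7, P14 and P28, SD, n = 6) and 4.68% ± 0.0433 early (E16.5 and E18.5, SD, n = 3), a difference of -2.25 percentage points. The single P1 sample entered neither group. The exact permutation test gave p = 0.0119 (two-sided, by the size of the difference), the smallest this design allows. After adjustment over 12 tests it was 0.143, so the difference did not pass. With that smallest p, an adjusted value under 0.05 would have needed small p-values in other tests of the 12 too. Some of those use the AT2 values that chose the probe, so the adjusted value cannot decide. A gap of this kind, with the highest late share below the lowest early share, was present for 17.2% of the 302 tested microRNAs, and the opposite gap for 6.95%. The early samples had 4.30 to 9.61 messenger RNA counts per 100 other microRNA counts, and the late ones 1.20 to 3.73. The part of that difference in the result was not tested. Depth overlapped between the groups. EC P28 replicate 1 and EC P14 replicate 2, with 111514 and 125258 other microRNA counts, had shares of 1.92% and 2.48%, while both E16.5 samples, with 112001 and 120656, had 4.71% and 4.63%.

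The EC levels, too, were lower in every postnatal sample than in the 3 embryonic ones. A gap in level, with all late samples below all early ones, was present for 48 of the 302 tested microRNAs. The E16.5 samples had levels of 16893 and 16246 and the E18.5 sample 13539, then 5530 at P1, 10611 and 11000 at P7, 9078 and 5125 at P14, and 8424 and 6128 at P28. Late minus early was -0.89 ± 0.85 (SE) on the log2(value + 1) scale in the limma fit over all 23 samples (adjusted p = 0.421), and no difference among the 6 EC stages was called (limma F-test, adjusted p = 0.849). In that fit 37.1% of the 302 microRNAs were called, 27.8% lower late and 9.27% higher late, and 27.2% were called among the stages. The split of calls depended on the scaling. With a common median 52 were higher and 23 lower late, and with quantile normalization 47 and 44. More stayed lower than higher with the background subtracted (39 higher and 55 lower). The same held with scaling to all microRNA counts (12 and 43) and to the other microRNA counts (24 and 103). On the recovered counts edgeR called 47 higher and 25 lower, and DESeq2 53 and 23. The SE in this fit pools the spread of AT2 and EC samples, and the AT2 replicates differed far more for this probe. Without AT2 P28 replicate 3 it was 0.54 (limma, adjusted p = 0.193). In a fit on the EC samples alone, added after seeing the data, the same difference had an SE of 0.28 and passed (limma, adjusted p = 0.0359), and 27.5% of the 302 microRNAs were called either way and 20.9% lower late. The F-test over the stages did not pass there (limma, adjusted p = 0.104), with 12.3% called. The median change over all 302 microRNAs was -0.57, and the probe was at position 113 counted from the most negative. Over the 92 microRNAs above background in all samples it was -0.12, with 19 of them lower than the probe. When the samples were set to 1 common median, the change of the probe was -0.28 (limma, adjusted p = 0.830).

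The age change of the AT2 level turned on 1 sample. Late minus early was 0.35 on the log2 scale, and without AT2 P28 replicate 3 it was -0.17. Its sign also turned with the scaling, from 1.23 with a common median to -0.54 with quantile normalization. The 4 embryonic AT2 shares (4.60% to 9.16%) lay inside the range of the 7 late ones (3.31% to 62.8%). In this contrast 51.3% of the 302 microRNAs were called, and it uses the samples that chose the probe.

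Both cell types were available from 9 specimens, judged by the ID in the sample titles. The AT2 share was above the EC share in all 9, by a factor of 1.07 (E16.5 replicate 2) to 32.2 (AT2 P28 replicate 3), with a mean log2 ratio of 1.51 ± 1.44 (SD, n = 9). The levels gave another picture, with AT2 above EC in 6 and below in 3 of the 9 and a mean log2 ratio of 0.77 ± 2.03. The specimens with a lower AT2 level were both of E16.5 and P7 replicate 1. The EC total is taken up in large part by MIMAT0000138. With that microRNA left out of the total, the AT2 share was higher in 7 of 9, with a mean log2 ratio of 0.89 ± 1.43. No test is given, since the AT2 values chose the probe.

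The specimen with 62.8% in AT2 cells had 1.95% in its EC sample, the second lowest EC share. Over the 9 specimens the log2 shares of EC and AT2 samples gave Pearson r = -0.24 and Spearman rho = 0.07. Without that specimen r was 0.37. These, too, are descriptions that use the AT2 shares. Members of a pair share their stage as well as their specimen. The other high sample, AT2 P1 replicate 2, had no EC partner.

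**Figure D4:**
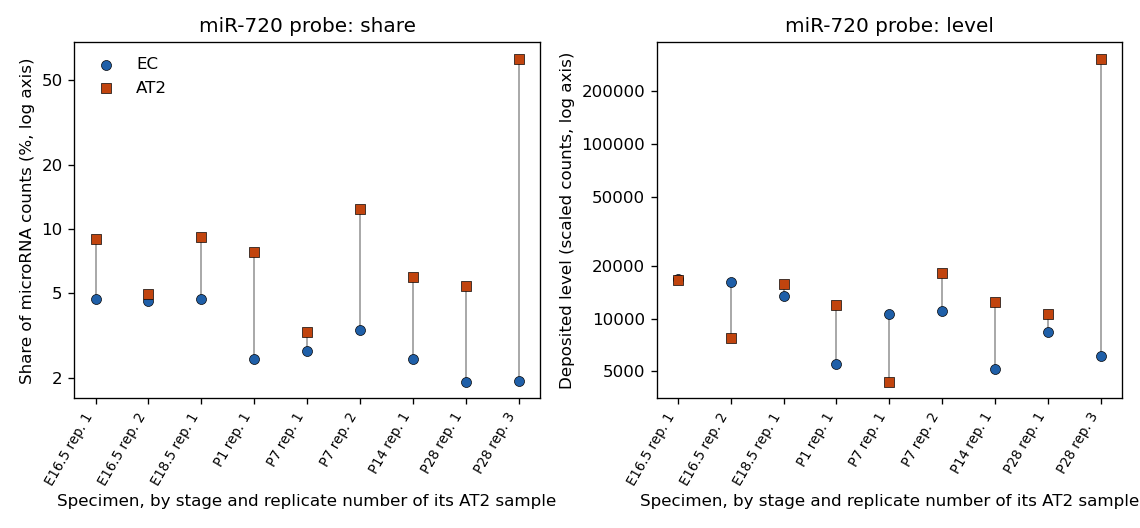
Share (percent, left) and deposited level (right) of the miR-720 probe in EC (circles) and AT2 cells (squares) of the 9 specimens with both, on log axes, with a line joining each pair. The AT2 share is the higher in all 9 pairs and the AT2 level in 6 of 9.

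The first number of the title ID, 15 or 16, is the only label that could mark separate series of specimens. All E16.5 and P1 samples carried 16, and all E18.5 and P7 samples carried 15. Only EC P14, EC P28 and AT2 P28 held both, so title number and stage cannot be told apart in the comparisons of 16 with 15. In EC the groups by title number had shares of 3.24% ± 1.32 (16) and 2.97% ± 1.11 (15) (SD, n = 5 each). The difference was 0.27 percentage points (exact permutation test, p = 0.738, adjusted p = 0.964). Within number 15 late minus early was -2.16 percentage points (exact permutation test, 4 against 1 sample, p = 0.200) and within 16 it was -2.45 (exact permutation test, 2 against 2, p = 0.333). These are the smallest p-values those numbers of samples allow. In AT2 cells both high samples carry 16, and the medians were 7.85% (16, n = 7) and 6.57% (15, n = 6).

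A few other probes followed the one for miR-720 from sample to sample. Likeness was measured as the Pearson correlation of log2(value + 1) over the 302 tested microRNAs, as a description, since all points of a sample share its library and factor. MIMAT0009401 was the most alike over the 23 samples (r = 0.89, Spearman rho = 0.74) and MIMAT0009429 the second (r = 0.86, rho = 0.78), where the median of all others was -0.06. Both were above background in 23 of 23 samples. Within EC they were the second and the first (r = 0.92 and 0.93, n = 10, median of the others 0.43), and within AT2 cells the second and the third (r = 0.89 and 0.86, n = 13, median -0.08). The most alike within AT2 cells was MIMAT0003738 (r = 0.92), which was above background in only 3 of the 13 AT2 samples and in 0 of 10 EC samples. Without the 2 AT2 samples of highest share, r was 0.61 for MIMAT0009401 and 0.60 for MIMAT0009429 (n = 11), the second and the third of the 301 other microRNAs. The lowest correlations over the 23 samples were those of MIMAT0000590 (r = -0.53, rho = -0.25) and MIMAT0000647 (r = -0.49, rho = -0.07).

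The sample with the most of the miR-720 probe was also the highest for both alike probes. MIMAT0009401 stood at 11262 in AT2 P28 replicate 3 and 2126 in AT2 P1 replicate 2, against 295 to 2016 in the other AT2 samples and 272 to 1324 in EC. MIMAT0009429 stood at 4209 and 842, against 192 to 945 and 196 to 785. AT2 P1 replicate 2 was near or below the level of AT2 P1 replicate 1, at 2016 and 945. In EC, MIMAT0009401 was lower in all 6 late samples (272 to 836) than in the 3 early ones (1118 to 1324), and so was MIMAT0009429 (196 to 486 against 562 to 785). Such a gap in the EC level was present for 48 of the 302 tested microRNAs. The changes of MIMAT0009401 and MIMAT0009429 in the fit over all samples were -1.22 ± 0.69 and -1.11 ± 0.53 (SE). They did not pass (limma, adjusted p = 0.159 and 0.1002).

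**Figure D5:**
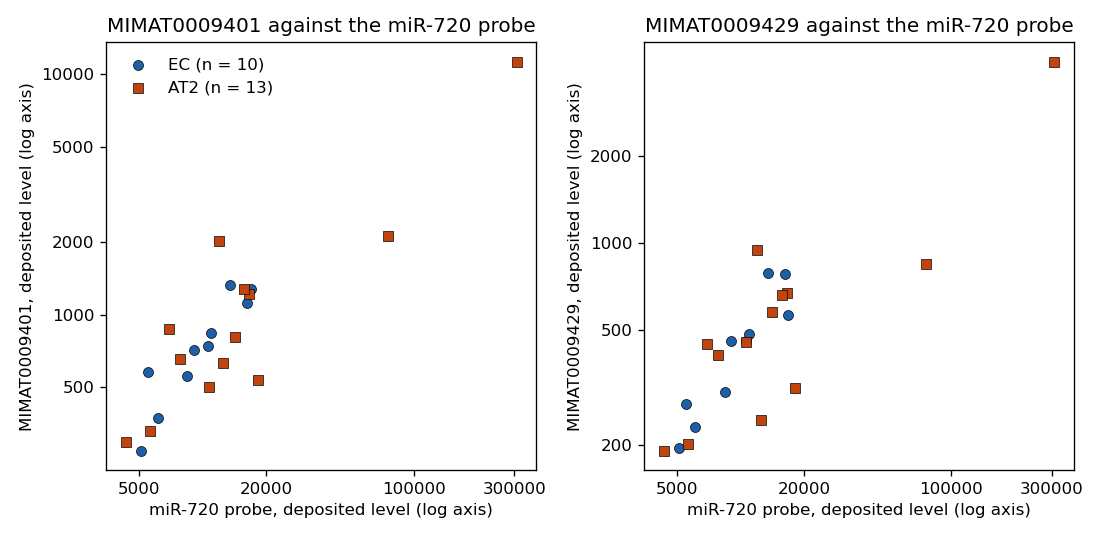
Deposited level of MIMAT0009401 (left) and MIMAT0009429 (right) against that of the miR-720 probe, each point 1 sample, EC as circles (n = 10) and AT2 cells as squares (n = 13), on log axes. Both tend to be higher where the miR-720 probe is higher, and AT2 P28 replicate 3 stands apart at 11262 and 4209.

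Where the probe takes much of the total, the shares of all other microRNAs shrink. In AT2 P28 replicate 3 the total without the probe was lower by 1.42 on the log2 scale, and in AT2 P1 replicate 2 by 0.60. It was lower by 0.03 to 0.19 in the other 21 samples. MIMAT0000138 took 1.74% of all counts in AT2 P28 replicate 3 and 4.67% of the counts without the probe. A scaling to the 100 highest microRNAs would be moved little by the probe. The geometric mean of the 100 highest microRNAs was 1.07 times that of the same set without the probe in AT2 P28 replicate 3, and 1.02 to 1.05 times in the other samples.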

How the data were processed

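The nCounter mouse miRNA kit and panel were used on total RNA, per the labels' protocols, and mm10 is named in the submitters' processing notes. The method of scaling is not given in the sources, nor is any background step. The authors deposited a scaled signal per probe. In each of 23 columns the rows other than ERCC controls are multiples of 1 step, the sample's factor (0.296 to 7.93), apart from values at a floor of 1 in 9 columns. All 13254 values checked, those under 2000 counts and off the floor, came out whole within 0.1 counts. Dividing by the factor gave the counts, rounded, and larger counts could not be checked in this way. ERCC rows are unscaled, and 8 low ones gave the background limit (mean plus 2 SD). MicroRNAs above it in at least 2 samples (302 of 602) were tested. Messenger RNA rows were named by RefSeq accession.

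Tests were limma 3.58.1 with trend in R 4.3.3, fitting each cell type and stage on log2(value + 1), Benjamini-Hochberg adjusted over 302 microRNAs with 0.05 as threshold, and exact or 100000-draw permutation tests (scipy 1.17.1), two-sided, adjusted over 12. The EC late-against-early test was checked on simulated counts with limma, edgeR and DESeq2, where limma called more of the unchanged microRNAs than the others did, and the exact test on values with a known answer. No replicate columns were identical. The probe, lists and tests were chosen with earlier results of these data known. Likeness was ranked for all tested microRNAs. As no table names the identifiers, the 5 most alike and 3 least alike that the rule for named microRNAs asks for were kept to 2, as were the rows next in spread, and the lists of fragment-like microRNAs and of endothelial, epithelial, leukocyte, erythroid and mesenchymal markers could not be matched. Alternatives changed scaling, filter, pseudocount (10), tool (edgeR 4.0.16 and DESeq2 1.42.0 on the recovered counts), block and samples.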

Additional observations from a re-analysis of the deposited data

Results flagged for a closer look

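AT2 P28 replicate 3 stood far from the other 6 late AT2 samples on each scale of the miR-720 probe: its share was 62.8%, its level 307999 and its log2 level 18.23. The gap to the next sample was 0.848, 0.954 and 0.663 of the whole range of the 7 samples, each above Dixon's 95% critical value for that number of samples. A rate of about 1 group in 20 passing that limit holds only for normally distributed values not picked for their spread, so it does not apply here. In all, 12 combinations of group and scale were examined, and the 3 scales are of 1 sample. The probe was chosen for its spread among these samples, so the gap describes that choice.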

How the results depend on the processing

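The EC late-minus-early share kept its negative sign in all 16 alternatives, and its exact p stayed under 0.05 except within title number 15 (-2.16) and 16 (-2.45); leaving out 1 sample gave -2.43 to -2.14. The EC level change kept its sign in all 37 alternatives, but in many of them its estimate could not change. These were the fits that left out only AT2 samples or EC P1 replicate 1, used no filter or took EC alone. The change passed only in the fit on EC alone (-0.89), chosen after seeing the data. So was the fit without 3 EC libraries (P1 replicate 1 and replicate 2 of both P14 and P28), at -0.67. Over the limma and edgeR fits among the 37, the adjusted p was 0.0359 to 0.830. Leaving out 1 sample gave -1.03 to -0.75; edgeR gave -0.35, and DESeq2 -0.34 without a p-value for this probe. With the specimen as a replicate block, the paired structure gave -0.90 (limma, adjusted p = 0.408) and changed no call on the probe.

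AT2 correlations with depth turned negative with ligation controls as depth (share -0.015, level -0.073), without the 2 samples farthest in depth (-0.23, -0.28) and, chosen after seeing the data, without AT2 P1 replicate 2 and AT2 P28 replicate 3 (-0.030, -0.17). Leaving out 1 sample gave -0.036 to 0.24 for the share and -0.095 to 0.16 for the level. With 1 sample or specimen left out, the EC to AT2 correlation ran from -0.39 to 0.37, and the title number difference from -0.092 to 0.71. The AT2 age change ran from -0.17 to 0.70 with 1 sample left out. It was -0.54 with quantile normalization, 1.23 with a common median, 1.55 with edgeR and 1.49 with DESeq2, and the cause was not tested. For EC age, 37.1% of 302 microRNAs were called, 28 higher and 84 lower late. In all, 55 of 302 were called with scaling to all microRNA counts and 72 with edgeR. Without 1 EC sample 66 to 121 of 302 were called (66 without EC E16.5 replicate 2, 69 without EC E18.5 replicate 1). The 82 of 302 called among EC stages became 38 with scaling to all microRNA counts and 37 in the EC fit. Without 1 EC sample they became 51 to 105 (51 without EC E16.5 replicate 2). With no filter 192 were called for EC age and 189 among EC stages. These are out of 602 tested rows, so they cannot be set directly beside the counts out of 302. The probe held 1437 counts or more in every sample, and each stage held at most 3 samples of a cell type.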
